A study of Homo sapiens with 8 samples.

Results

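The spectrin-based membrane skeleton was followed in 8 genes through their local splicing variations (LSVs). An LSV is the set of junctions that all leave 1 exon (a source LSV) or all enter 1 exon (a target LSV), and each junction has a share of the spliced transcripts at that exon. The genes were chosen by name: EPB41 (protein 4.1R), EPB41L2 (protein 4.1G), NF2 (merlin), ADD1 and ADD3 (alpha- and gamma-adducin), SPTAN1 and SPTBN1 (alphaII- and betaII-spectrin) and ANK3 (ankyrin-G). Every LSV listed under these names was taken, which gave 114 of 91480 LSVs in unstimulated cells and 113 of 91729 in PMA-treated cells. In all, 116 member LSVs were listed in either table and 111 in both, of 95692 in either table over all genes. ANK3 had 0 LSVs in both tables, so 7 of the 8 genes have values.

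The cells were JSL1, a monoclonal line derived from the human T lymphocyte line Jurkat, so that all values come from 1 clone. Its 4 groups of 2 libraries were unstimulated control cells, unstimulated cells depleted of CELF2, and both kinds of cells after 48 hours with 20 ng/mL of the phorbol ester PMA, which activates protein kinase C. Depletion used stably integrated short hairpin RNAs that doxycycline induces. Their target, CELF2, binds RNA and controls how exons are joined. The labels do not say whether doxycycline or another hairpin was also given to the control cells. The study's title names the functional targets of CELF2 in T cells as its subject.

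The membrane skeleton is a meshwork under the plasma membrane in which long spectrin tetramers of alpha and beta chains are tied together by short actin filaments. Adducin caps these filaments and recruits spectrin to them, protein 4.1 strengthens the spectrin-actin bond and links it to membrane proteins through its FERM domain, and ankyrin ties beta-spectrin to the membrane. Merlin, the product of the tumour suppressor gene NF2, shares the FERM domain of the protein 4.1 superfamily and joins the cell cortex to growth control. Many of these genes are known for alternative exons that are used in a tissue-specific way.

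The alternative exons on which the results turn are short, and each was a multiple of 3 nucleotides (nt) long. Their positions are on hg19 as in the deposited tables. Their sequences are those of GENCODE 29 transcripts of the same gene with the same exon length and matching neighbouring intron lengths, read 5′ to 3′ on the transcript's strand. The first pair, the 63-nt exons of EPB41 (chr1:29386934-29386996, plus strand) and EPB41L2 (chr6:131201284-131201346, minus strand), is shown because both genes responded at this exon. Capitals mark the longest run in which both are identical, bases 38 to 63.

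EPB41 63-nt exon: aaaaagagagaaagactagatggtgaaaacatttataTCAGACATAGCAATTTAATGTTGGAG
EPB41L2 63-nt exon: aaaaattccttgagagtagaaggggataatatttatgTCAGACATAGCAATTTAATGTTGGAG

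The exons shared 50 of 63 bases (79.4%), with a run of 26 identical bases up to the 3′ end. For comparison, the 81-nt exons farther downstream in both genes shared 68 of 81 bases (84.0%), with a longest run of 19.

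The other exons are shown because they carry the changes of EPB41, NF2, ADD3 and SPTAN1. In NF2 the capitals mark the stop codon. In the stretch between the alternative acceptors of EPB41 they mark a start codon.

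EPB41 57-nt exon (chr1:29385101-29385157, plus strand): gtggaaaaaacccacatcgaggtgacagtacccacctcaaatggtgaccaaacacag
EPB41 acceptor stretch (chr1:29313943-29313959, plus strand): caacatcATGacaacag
NF2 45-nt exon (chr22:30079009-30079053, plus strand): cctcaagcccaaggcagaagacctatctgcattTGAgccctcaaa
ADD3 96-nt exon (chr10:111892063-111892158, plus strand): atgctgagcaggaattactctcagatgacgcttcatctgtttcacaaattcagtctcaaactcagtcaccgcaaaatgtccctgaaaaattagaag
SPTAN1 15-nt exon (chr9:131371930-131371944, plus strand): ctttccaagctgctg
SPTAN1 18-nt exon (chr9:131390204-131390221, plus strand): gacatacctcctcgatgg

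The exons of EPB41, EPB41L2 and SPTAN1 lay wholly within the coding sequence in all protein-coding transcripts they were matched to, 15 for the 57-nt and 11 for the 63-nt exon of EPB41, 4 for EPB41L2, and 3 and 5 for the 15-nt and 18-nt exons of SPTAN1. The ADD3 exon was matched to 1 transcript, ADD3-202, and was wholly coding there. The NF2 exon held the stop codon, from base 34, in all 6 protein-coding transcripts matched, and 9 bases followed it.

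Changes with depletion are the authors' own, read from their deposited tables, in which each group has 1 value for both of its libraries. The tables therefore give no spread between libraries and no read depth, and the measure of error is the authors' posterior probability that a junction's share changed by at least 20 percentage points. An LSV is called here when that probability is at least 0.95 in any junction. Shares are bounded at 2.5% and 97.5%, the lowest and highest values listed, so values at these limits do not give an exact share.

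In unstimulated cells 6 of 114 member LSVs (5.26%) were called, in 4 of 7 genes, against a background of 0.985% of all LSVs and 6.20% of all genes. In PMA-treated cells 11 of 113 (9.73%) were called, in 5 of 7 genes, against 1.87% of all LSVs and 10.6% of all genes. A source and a target LSV on either side of 1 exon share the skipping junction, so these counts are of LSVs, not of separate events: the 6 lay at 4 places and the 11 at 6 places. EPB41, EPB41L2 and NF2 were called in both states, SPTBN1 only without PMA, and ADD3 and SPTAN1 only with PMA; whether the depletion change differed between states was not tested. ADD1 had no call. The members were chosen with earlier results of these data known, so the excess over background is not independent of that choice. They also held 114 LSVs in 7 genes, against 91480 in 10965 over all genes without PMA. More LSVs per gene give a gene more chances of a call. Over all member LSVs, called or not, the median of the largest expected change was 0.001 points without and 0.0005 points with PMA in the authors' deposited tables, against 0.0074 and 0.0168 points over all genes. An expected change of at least 10 points, whatever its posterior, was listed for 12 member LSVs without and 18 with PMA in the authors' deposited tables. Across the 4 groups 73 of the 111 LSVs listed in both tables (65.8%) stayed within 5 points in every junction, against 61.2% of all LSVs, and 25 (22.5%) moved by 10 points or more, against 23.1%.

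**Figure D1:**
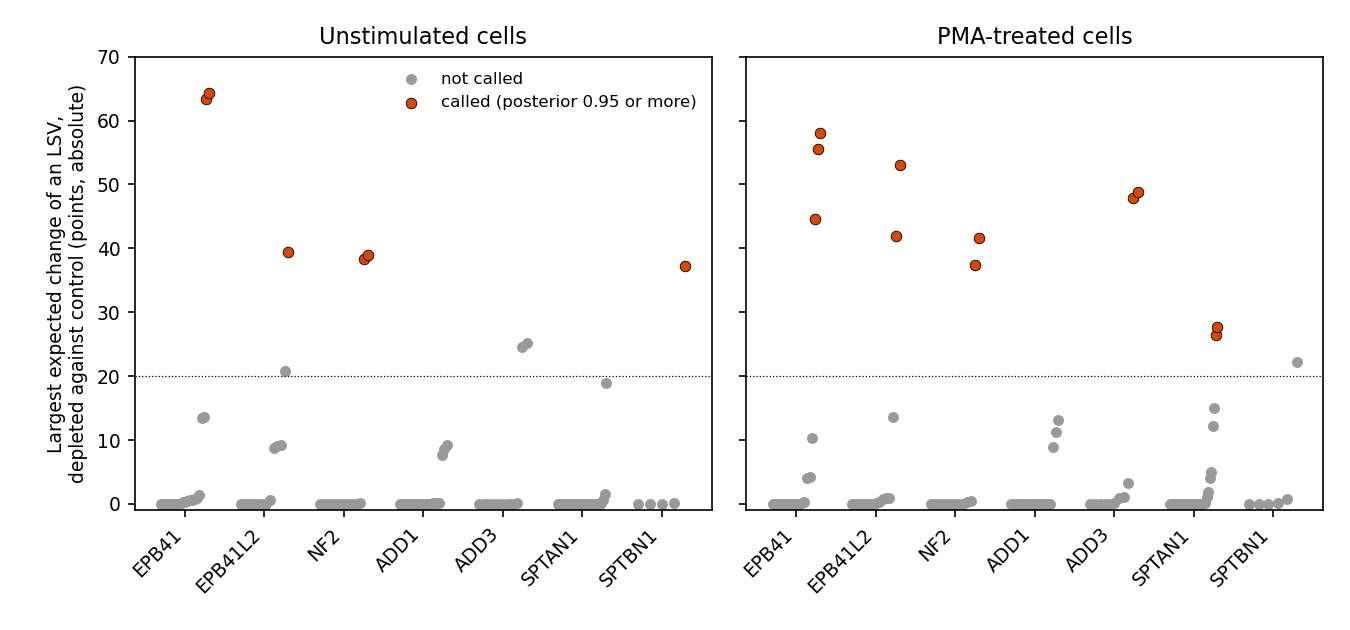
Largest expected change of each member LSV between depleted and control cells (absolute, in percentage points), by gene, in unstimulated (left) and PMA-treated cells (right). Each point is 1 LSV; filled orange points are the 6 and 11 called LSVs, grey points the others, and the dotted line marks 20 points. Most points lie near 0, at most 3 LSVs of a gene stand above 20 points, and those of ADD1 stay below 20 points in both panels.

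Protein 4.1R had the largest expected changes of the 7 genes. Between a 209-nt exon and the 177-nt exon of EPB41 lie cassette exons of 57, 42 and 63 nt, and the last of these corresponds in length and order to the exon of the spectrin-actin binding domain that is known to be switched on as red cells mature and to strengthen binding to spectrin and actin. In control cells most transcripts skipped the block, and in depleted cells most did not. The junction that skips from the 209-nt to the 177-nt exon (29379824 to 29391494) had a share of 84.4% in unstimulated control cells, 21.7% in unstimulated depleted cells, 97.5% in PMA-treated control cells and 43.3% in PMA-treated depleted cells, seen from the exon before. Both control groups were above both depleted groups. The authors' deposited tables give expected changes of -64.2 points without and -55.6 points with PMA, each with a posterior of 1.0. Seen from the 177-nt exon, the same junction had 87.5%, 25.7%, 97.3% and 40.6% in the same order of groups.

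The skipped share went to both outer exons. The junction into the 63-nt exon rose with depletion from 7.8% to 45.4% without PMA and from 2.5% to 31.0% with PMA, and the junction out of it from 7.6% to 53.3% and from 2.5% to 38.4%. All 4 of these changes had a posterior of 1.0 in the authors' deposited tables. The junction into the 57-nt exon rose from 7.7% to 32.9% (posterior 0.987 in the authors' deposited table) and, with PMA, from 2.5% to 25.6% (0.976). The direct junction from the 57-nt to the 177-nt exon stood at 4.8% and 21.1% without PMA and at 2.5% and 21.0% with PMA, with posteriors of 0.391 and 0.635 in the authors' deposited tables, below the call on its own. The outer exons were thus each reached directly from the 209-nt exon, and both were also left directly for the 177-nt exon.

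How the exons were joined can be read only in unstimulated cells, from LSVs that were not listed with PMA. Of the junctions leaving the 57-nt exon, the one to the 63-nt exon had 16.7% in control and 38.6% in depleted cells, the one to the 42-nt exon 13.6% and 4.1%, and the one to the 177-nt exon 69.8% and 57.2%. The highest posterior of this LSV was 0.431 in the authors' deposited table, so no change was called. Of the junctions entering the 63-nt exon, the one from the 209-nt exon had 84.6% in control and 75.7% in depleted cells. The one from the 57-nt exon had 11.9% and 20.4%, and the one from the 42-nt exon 3.8% and 3.5%. Here the highest posterior was 0.00943 in the authors' deposited table, again with no call. Of the 24 protein-coding GENCODE 29 transcripts that span this block, 7 hold all 3 exons, 7 hold none, 3 hold the 57-nt exon alone, 2 the 63-nt exon alone, 2 the 57-nt and 63-nt exons, and 3 the 57-nt and 42-nt exons. A pair of acceptors 3 nt apart at the 209-nt exon served as a contrast within the gene: the upstream one had 76.0% and 80.7% without PMA and 70.9% and 80.1% with PMA, in control and depleted cells.

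At the 5′ end of EPB41, 3 alternative first exons join an exon that has acceptors 17 nt apart, and the stretch between them, printed above, holds a start codon. Of the 14 protein-coding transcripts that use the upstream acceptor, 12 have their annotated start codon in that stretch. Of the 6 that use the downstream acceptor, 0 do: their start codons lie in a later exon. The upstream start is known to give the long, high-molecular-weight form of protein 4.1R and the downstream start the short form found in mature red cells. The junction from the most upstream first exon to the downstream acceptor (29213722 to 29313960) had 41.6% in unstimulated control cells, 58.3% in unstimulated depleted cells, 36.9% in PMA-treated control cells and 80.3% in PMA-treated depleted cells. The depleted groups were the 2 highest. The expected change was 13.6 points (posterior 0.387, not called) without PMA and 44.5 points (posterior 1.0) with PMA in the authors' deposited tables.

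The remaining share at this exon went through the upstream acceptor. The junction from the middle first exon (29220349) had 8.7% and 7.0% in unstimulated control and depleted cells, 35.4% in PMA-treated control cells and 3.6% in PMA-treated depleted cells. It was high only in PMA-treated control cells, and its fall with depletion under PMA had an expected change of -32.7 points and a posterior of 0.999 in the authors' deposited table. The junction from the most downstream first exon (29241280) had 49.5%, 33.3%, 27.6% and 15.8% in the same order of groups, with posteriors of 0.343 without and 0.0611 with PMA in the authors' deposited tables. The junction from the most upstream first exon to the upstream acceptor (29213722 to 29313943) stood at the bound of 2.5% in all 4 groups. The groups thus differed in which first exon was joined, and from the most upstream one the downstream acceptor held nearly all of the share in every group.

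**Figure D2:**
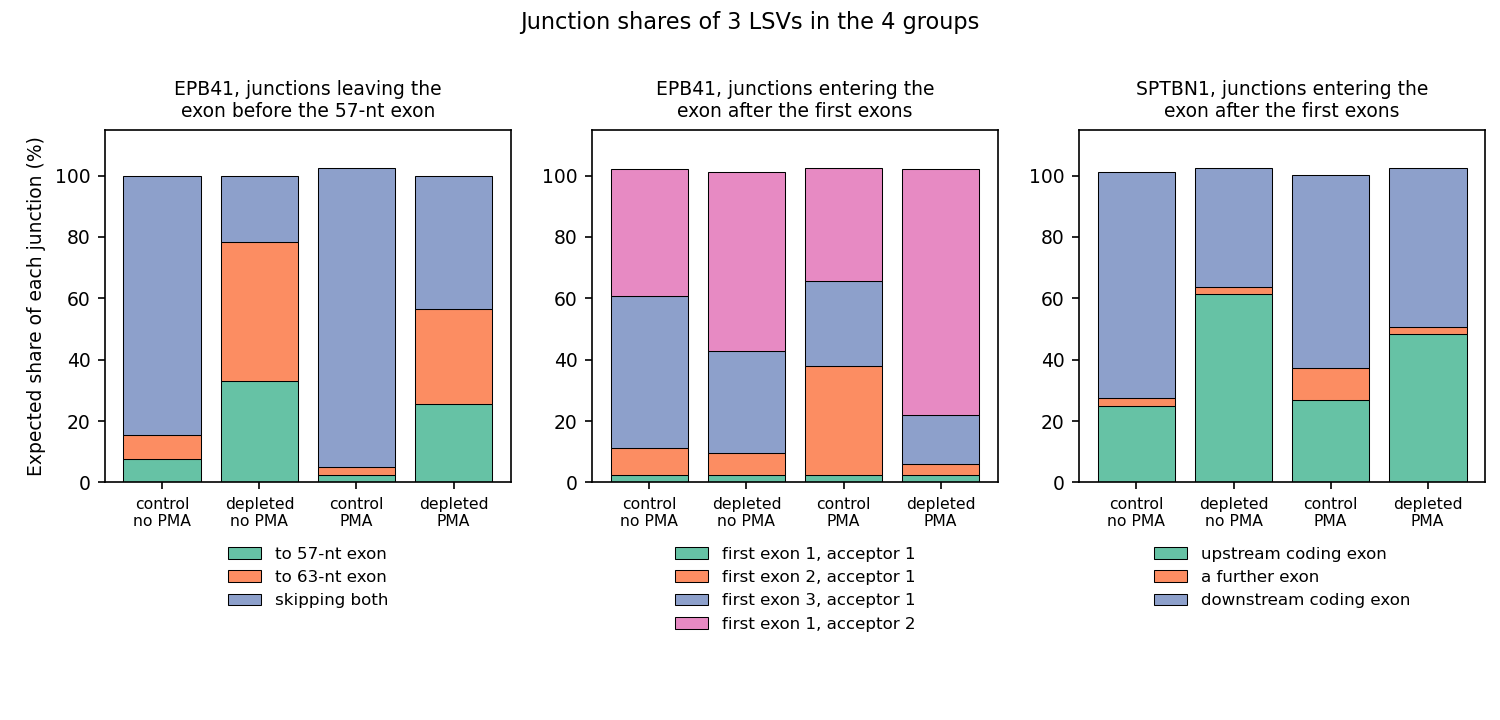
Expected share (%) of each junction of 3 LSVs, stacked, in the 4 groups. The 3 panels show the EPB41 exon block, the EPB41 first exons (numbered from the most upstream, with acceptor 1 upstream of acceptor 2) and the SPTBN1 first coding exons. Skipping of the EPB41 block falls from 84.4% to 21.7% without and from 97.5% to 43.3% with PMA, and the stacks can sum to slightly over the whole because each share is bounded at 2.5%.

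EPB41L2 encodes protein 4.1G, the widely expressed relative of protein 4.1R. Its 63-nt exon, the counterpart of the EPB41 exon shown above, rose with depletion too. The junction into it had 2.5% in unstimulated control, 21.7% in unstimulated depleted, 2.5% in PMA-treated control and 41.1% in PMA-treated depleted cells. It was at the lower bound in both control groups. Its posterior was 0.689 without and 1.0 with PMA in the authors' deposited tables. In 2 of the protein-coding transcripts that hold the exon a 147-nt exon follows it and joins the next exon of the tables, and the junction out of that 147-nt exon (131191266 to 131199244) had 4.2%, 42.4%, 8.6% and 57.3% in the same order. This junction was called in both states, with expected changes of 39.2 and 50 points and posteriors of 1.0 in the authors' deposited tables. The skipping junction (131191266 to 131206236) mirrored it, with 95%, 56.5%, 91.3% and 39.6% seen from the exon after and 97%, 76.7%, 96.6% and 55.7% seen from the exon before. These junctions belong to neighbouring exons, and in unstimulated depleted cells their shares were apart, at 21.7% and 42.4%. The gap between the LSVs on either side of 1 cassette exon was 6.4 points at its 95th percentile in that group, over 4450 exons of all genes. Its median was 0.0 points, and it concerns a single exon, so it is not a like measure for these EPB41L2 junctions. The direct junction to the 147-nt exon that passes over the 63-nt exon (131199390 to 131206236) stood at the bound of 2.5% in all 4 groups.

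Other places in EPB41L2 were not called. A stretch listed as an intron (131191084 to 131191179) lies within a 564-nt exon that was wholly coding in 6 protein-coding transcripts. Seen from its upstream side, its unspliced share was 95% and 81.2% without and 84.0% and 97.4% with PMA, in control and depleted cells. The posteriors were 0.159 and 0.106 in the authors' deposited tables. Seen from its downstream side, the unspliced share was 97.5% and 92.8% without and 94.4% and 97.5% with PMA. A pair of donors 249 nt apart had a minor share of 19.1%, 7.6%, 9.2% and 3.4% in the 4 groups. Donors 13 nt apart in an exon near the 5′ end had a minor share of 23.5% and 23.1% without and 9.6% and 14.7% with PMA.

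Merlin was called in both states. The junction into the 45-nt exon of NF2, whose inclusion ends the protein at the stop codon marked above and replaces the C-terminal residues of the isoform that skips it, had 17% in unstimulated control, 54.4% in unstimulated depleted, 28.5% in PMA-treated control and 64.9% in PMA-treated depleted cells. Both depleted groups were above both control groups. The expected changes were 38.3 and 37.3 points with posteriors of 1.0 in the authors' deposited tables. The junction out of the exon had 16.7%, 50.9%, 24.5% and 61.9%, and the skipping junction seen from the last exon 80.3%, 42.3%, 71.1% and 30.5%. A donor 15 nt farther along the same exon stayed at 2.5% in 3 groups and had 4.8% in PMA-treated depleted cells. Another NF2 cassette exon, early in the gene, had an inclusion of 2.9% and 2.8% without PMA and 8.6% and 3.9% with PMA, and its highest posterior was 2.19e-07 in the authors' deposited table. The other 10 of 13 NF2 LSVs moved by under 5 points over the 4 groups.

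Among the adducins, ADD3 changed and ADD1 did not pass the call. The 96-nt exon of ADD3 is the exon that separates the long from the short form of gamma-adducin, in the C-terminal part of the protein. Unlike the exons of EPB41, EPB41L2 and NF2, its inclusion was lower in depleted cells. The junction into it had 75.8% in unstimulated control, 51.3% in unstimulated depleted, 84.1% in PMA-treated control and 36.5% in PMA-treated depleted cells, and the junction out of it 75.5%, 51.6%, 85.7% and 39.0%. Both control groups were above both depleted groups. With PMA the expected changes were -48.8 and -48.0 points, with posteriors of 1.0 in the authors' deposited table. Without PMA they were -25.1 and -24.6 points, with posteriors of 0.912 and 0.9 in the authors' deposited table, short of the call. The inclusion junctions into exons 111877100-111877180 and 111878345-111878494 of ADD3 ran from 91.7% to 97.5% over the 4 groups, and the junction out of the exon that ends at 111839055 had 4.6% and 8.2% without and 2.5% and 2.9% with PMA, in control and depleted cells.

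ADD1, the alpha subunit with which the other adducins pair, had 18 LSVs without and 17 with PMA, and its highest posterior was 0.000349 and 0.0142 in the authors' deposited tables. Both of these belong to a pair of donors 93 nt apart. The downstream donor had 3.6% and 13.4% without and 2.5% and 14.2% with PMA, in control and depleted cells. Skipping of a 99-nt exon (2900160 to 2900258) had 2.5% and 9.7% without and 2.5% and 13.1% with PMA, seen from the exon after. Seen from the exon before, it had 2.5% and 8.8% without and 2.5% and 11.1% with PMA. At both places depleted cells had the higher values in both states, at sizes below the 20 points that the posterior asks for.

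**Figure D3:**
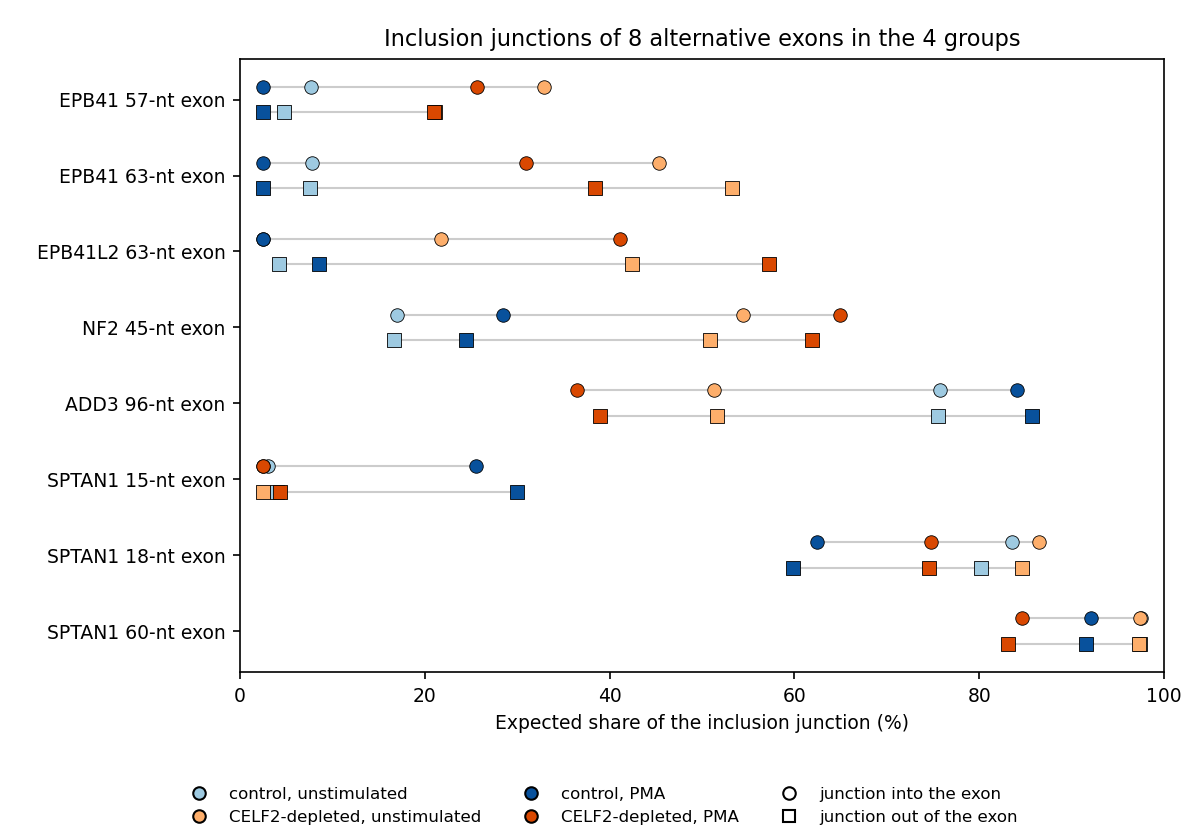
Expected share (%) of the inclusion junctions of 8 alternative exons in the 4 groups; circles are junctions into the exon, squares junctions out of it (for EPB41L2, out of the 147-nt exon that follows), light colours without and dark colours with PMA, blue control and orange depleted. Depleted cells lie to the right of control cells for EPB41, EPB41L2 and NF2 and to the left for ADD3, and the 15-nt exon of SPTAN1 stands apart only in PMA-treated control cells, at 25.5% and 30%.

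In SPTAN1, which encodes the alpha chain of non-erythroid spectrin, the 15-nt exon was used in 1 group. The junction into it had 3.0% in unstimulated control, 2.5% in unstimulated depleted, 25.5% in PMA-treated control and 2.5% in PMA-treated depleted cells, and the junction out of it 4.0%, 2.5%, 30% and 4.3%. PMA-treated control cells stood above the other 3 groups, which were at 4.3% or less. Skipping of the exon rose with depletion under PMA from 69.9% to 96.9% (posterior 0.984) and, from the exon after, from 69.8% to 95.6% (posterior 0.962) in the authors' deposited table. Without PMA the highest posterior of these LSVs was 3.75e-18 in the authors' deposited table, with shares near the bound in both groups.

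The 18-nt exon of SPTAN1 had its lowest share in the same group. The junction into it had 83.5% in unstimulated control, 86.5% in unstimulated depleted, 62.4% in PMA-treated control and 74.8% in PMA-treated depleted cells, and the junction out of it 80.2%, 84.6%, 59.8% and 74.6%. Depleted cells were above control cells in both states, but no change was called, with posteriors of at most 0.294 in the authors' deposited tables. The 60-nt exon, wholly coding in 3 protein-coding transcripts, had 97.5%, 97.4%, 92.1% and 84.6% from the exon before and 97.4%, 97.3%, 91.6% and 83.1% from the exon after, lowest in PMA-treated depleted cells, with a posterior of at most 0.000796 in the authors' deposited tables. A retained intron downstream (131390649 to 131392600 when spliced) had 73.3%, 92.1%, 75.5% and 83.8%, with posteriors of 0.597 without and 0.012 with PMA in the authors' deposited tables. These retained shares count only what leaves the exon at 131390395-131390649, not all SPTAN1 transcripts. Of the 32 SPTAN1 LSVs, 24 stayed within 5 points in all 4 groups.

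SPTBN1 encodes the beta chain that pairs with SPTAN1, and its change lay at the 5′ end. Alternative coding exons that hold a start codon join a common exon (chr2:54826229-54826380). The junction from the upstream coding exon (54753703), exon 2 of its transcripts, where 148 coding bases including the start codon lie, had 24.9% in unstimulated control, 61.3% in unstimulated depleted, 26.7% in PMA-treated control and 48.3% in PMA-treated depleted cells. The junction from the downstream first exon (54786024), exon 1 of its transcript, with 109 coding bases and its own start codon, had 73.9%, 38.6%, 62.9% and 51.6%. Both depleted groups were above both control groups for the first and below them for the second. The first junction changed by an expected 37.3 points without PMA (posterior 1.0) and by 22.2 points with PMA (posterior 0.827, not called) in the authors' deposited tables. For the second the expected changes there were -36.2 points without PMA (posterior 1.0) and only -8.2 points with PMA (posterior 0.0861). A further junction (from 54784450) stood at 2.5% in 3 groups and at 10.6% in PMA-treated control cells. The tables hold no expression values, so use of promoters and splicing cannot be told apart at the 5′ ends of SPTBN1 and EPB41.

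Differences between PMA-treated and unstimulated cells were taken as the difference of the shares of the 2 tables, which were quantified separately, and are given with no test. In control cells 5 of 111 member LSVs (4.5%) differed by at least 20 points in any junction, against 2.59% of all LSVs, and in depleted cells 3 of 111 (2.7%), against 1.87%. The depleted count is near its background, and neither is read as particular to these genes. In control cells the 5 LSVs were the EPB41 first exons and the LSVs on either side of the 15-nt and 18-nt exons of SPTAN1. In depleted cells they were the EPB41 first exons, the EPB41 exon block and EPB41L2. The EPB41 junction from 29213722 to 29313960 was higher with PMA there by 22.0 points. Seen from the exon before, skipping differed by 21.6 points for the EPB41 block and -21.0 points for EPB41L2. Seen from the exon after, these differences were 14.9 and -16.9 points, short of 20.

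Set side by side, the values of single junctions under PMA were as follows. The 15-nt exon of SPTAN1 was higher with PMA by 22.5 points (junction in) and 26 points (junction out) in control cells, and by 0.0 and 1.8 points in depleted cells. The 18-nt exon was lower with PMA, with differences of -21.1 and -20.4 points in control cells and of -11.7 and -10.0 points in depleted cells. The EPB41 junction from the middle first exon was higher by 26.7 points in control cells and differed by -3.4 points in depleted cells. The one from the most downstream first exon differed by -21.9 points in control and -17.5 points in depleted cells. Both 63-nt exons of the 4.1 genes differed little with PMA in control cells, where they were near the lower bound: their junctions in differed by -5.3 points in EPB41 and 0.0 points in EPB41L2. In depleted cells these junctions went opposite ways, by -14.4 points in EPB41 and by 19.4 points in EPB41L2. The ADD3 exon was higher with PMA in control cells, by 8.3 and 10.2 points, and lower in depleted cells, with differences of -14.8 and -12.6 points. The NF2 exon was higher with PMA in both kinds of cells, by 11.5 and 7.8 points in control and 10.5 and 11.0 points in depleted cells. For a cassette exon, the PMA difference can be read from both its source and its target LSV. Over 4212 exons of all genes these readings differed with an SD of 3.16 points in control and 3.01 points in depleted cells. The median gap was 0.1 points in both kinds of cells. Both readings come from the same combined libraries and share the skipping junction. The SDs therefore leave out the spread between libraries and cannot serve as the error of the differences above.

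**Figure D4:**
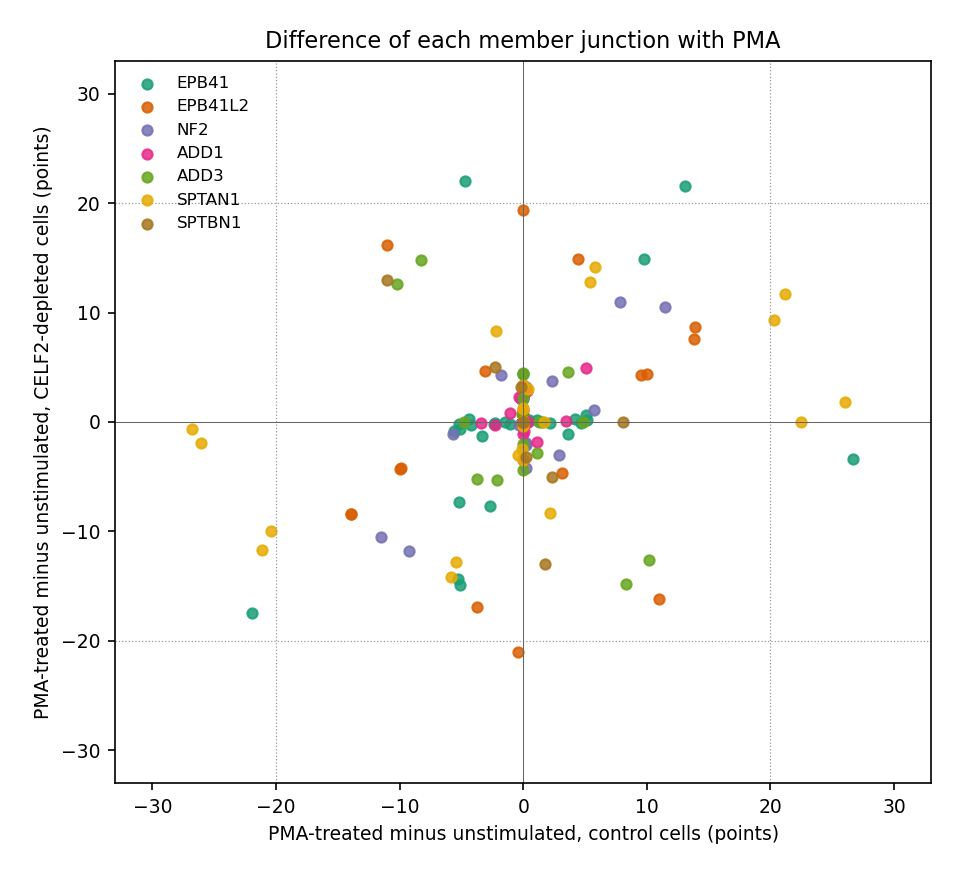
Difference in share between PMA-treated and unstimulated cells (points) of each member junction listed in both tables, in control cells (horizontal) and in CELF2-depleted cells (vertical), coloured by gene; dotted lines mark 20 points either way. SPTAN1 and EPB41 junctions lie farthest out along the horizontal axis, at 26.7 points and beyond 20 points on both sides, and most junctions lie near the centre.

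A list of 34 related genes of the membrane skeleton and its partners was read in the same way. It too was chosen with earlier results of these data known, and 22 of its genes had an LSV in each table. In unstimulated cells 1 gene was called (4.55% of those listed), with 2 of 169 LSVs (1.18%), close to or below the background of 6.20% of genes and 0.985% of LSVs. The gene was EPB41L1, the neuronal relative of protein 4.1, in which the junction from 34785963 to 34800194 fell from 82.8% to 46.8% with a posterior of 0.999 in the authors' deposited table. With PMA the same junction stood at 77.2% and 44.1% with a posterior of 0.876 in the authors' deposited table, short of the call. In PMA-treated cells 5 genes were called (22.7%), with 5 of 168 LSVs (2.98%), against 10.6% of all genes and 1.87% of all LSVs. They were EPB41L5, a further FERM-domain protein, at 48.7% in control and 14.8% in depleted cells, and TMOD1, which caps the slow end of actin filaments, at 2.5% and 40.5%. The others were the tropomyosins, which lie along actin filaments: TPM1 at 55.0% and 85.8%, TPM2 at 85.1% and 57.2% and TPM4 at 54.3% and 86.5%, each for the junction of largest change. Without PMA the same junctions of EPB41L5 and these tropomyosins moved in the same direction, short of the call. The expected change was -16.8 points for EPB41L5 (posterior 0.538) and 9.8 points for TPM4 (posterior 0.000578) in the authors' deposited table. For TPM1 and TPM2 it was 20.6 points (posterior 0.702) and -20.6 points (posterior 0.708) there. TMOD1 had 0 LSVs without PMA. Whether these changes differed between states was not tested. EZR, RDX and MSN, the ERM proteins closest to merlin, had no call in either state, with posteriors of at most 0.000137 in the authors' deposited tables.

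The tables hold splicing values alone, so the level of CELF2 could not be checked in any group. The gene's own LSVs were not called in unstimulated cells (0 of 11, highest posterior 1.38e-05 in the authors' deposited table) and 3 of 16 were called with PMA. Of 12 T lymphocyte genes 10 had a listed LSV in each table (CD2 and CD28 did not), against 0 of 4 myeloid, 1 of 4 B lymphocyte and 1 of 6 erythroid genes.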

How the data were processed

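The authors deposited 2 tables, 1 per state, made from TruSeq stranded libraries. Per the file headers, each line is an LSV and gives for each junction the expected share of each group as a fraction, the expected change and a posterior probability that it reaches 20 points; the columns are named as in VOILA, which writes the output of MAJIQ. STAR 2.5.1b and hg19 appear in the submitters' processing notes, with no role. The sources used here give neither the version of MAJIQ nor its filters, nor whether libraries of 1 group stem from separate cultures. Each group's 2 libraries were combined by the authors, so no SD, interval or own test was possible and depth is unknown. The posterior is not a p-value.

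Shares were turned into percent with Python 3.11.15 and pandas 2.3.3. Source and target were taken from the LSV type, since the word in the LSV name is reversed on the minus strand. Shares were compared between tables only for LSVs with the same junctions. Exons were matched to 178 GENCODE 29 transcripts by structure, without moving coordinates between builds. The number of per-sample columns not used is 0. The reading of the tables was tested on simulated data. Every member was named; its called LSVs, its highest posterior where none was called, and its PMA differences of at least 20 points were described. The members and lists were chosen with earlier results of these data known.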

Additional observations from a re-analysis of the deposited data

How the results depend on the processing

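No paired analysis was possible because the tables hold 1 value per group; for the same reason, leaving out each library and the replicate block were not run. The count of called member LSVs without PMA, 6, went to 12 when any expected change of at least 10 points counted, to 2 with source LSVs only and to 1 with LSVs of 2 junctions only. With PMA the count of 11 went to 18, 5 and 3 under the same settings and to 6 with target LSVs only. PMA differences in control cells, 5 LSVs, went to 13 at 10 points, 0 at 30 points, 2 without LSVs that hold a de novo junction, 2 for source LSVs, 3 for target LSVs and 0 for LSVs of 2 junctions. In depleted cells, 3 LSVs went to 15 at 10 points, 0 at 30 points, 1 for target LSVs and 0 for LSVs of 2 junctions. Restricting to fewer LSVs lowers counts by construction. The other 13 counts stayed within 1.5 times, and inclusion of the 60-nt SPTAN1 exon from 1 LSV alone moved by less than the spread between source and target LSVs in all 8 cases. Depth could not be read, so it is unknown which of the changes short of the call were limited by it.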
